A study of Mus musculus with 18 samples.

Results

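Mouse gastruloids at the end of an early pulse of CHIR were compared with untreated gastruloids of the same age, gene by gene across the whole transcriptome. The comparison uses 6 of the 18 libraries of the study, chosen by their labels: 3 early libraries of 48 h and 3 control libraries of 48 h. Gastruloids, aggregates made from embryonic stem cells, develop germ layers and an axis in a dish, and CHIR is a small inhibitor of the kinase GSK3. The early libraries had CHIR from 24 to 48 h after aggregation and were collected as it ended, and the controls of 48 h are labelled as untreated, with no vehicle named. Cells of both groups were wild type (WT) and of the strain 129/SVEV, and no other allele or agent is named. Another group, the control libraries of 72 h, had CHIR from 48 to 72 h and serves below as a second point at the end of a pulse. The study asks, per its labels, what the time of the Wnt pulse does to gene expression.

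Gastruloids of a condition were pooled before extraction, so that each value is a mean over many gastruloids and all their cells. In such bulk RNA, fewer cells of a type and less RNA per cell cannot be told apart. Whether the 3 libraries of each group were separate cultures is not stated in the labels. The p-values thus reflect the spread among the samples of this study alone, and that spread may be technical. It was estimated over all 18 libraries, with those of 72 and 96 h included. A gene with a narrow spread at 48 h can therefore have a wide SE and stay uncalled. Levels are given in CPM, edgeR's library-size-scaled count unit, in the order of replicates 1, 2 and 3, and changes as the log2 fold change of early over untreated ± SE. Values with an SE and no named unit are such log2 fold changes. A gene is called where the p-value of edgeR's quasi-likelihood test, adjusted by Benjamini-Hochberg over 16041 tested genes, is under 0.05.

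In the Wnt pathway, a complex with Axin, APC and GSK3 marks β-catenin for destruction, and an inhibitor of GSK3 lets β-catenin accumulate and act with the DNA-binding factors of the TCF/LEF family. In mouse embryonic stem cells this signal is known to sustain the naive state of the early epiblast, in part by relieving repression by Tcf7l1. In the later epiblast of the embryo the same signal induces the primitive streak, from which mesoderm and endoderm arise. Between those states lies the formative epiblast, which aggregated cells enter when they leave the naive state.

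TCF/LEF factors bind a short DNA element with the core CTTTGA, and direct Wnt target genes can carry it near their start. The windows from 250 bases before to 50 bases after the start site were taken from RefSeq (build GRCm38.p6) for 4 genes on which the results turn, to show where this core lies, with the core in capitals on either strand. Sp5, at chr2:70474673-70474972 (plus strand), and Tnfrsf19, at chr14:61037938-61038237 (minus strand), are Wnt targets. T, at chr17:8434173-8434472 (plus strand), is the streak factor brachyury, and Axin2, at chr11:108920099-108920398 (plus strand), is the feedback gene most used as a Wnt readout.
Sp5: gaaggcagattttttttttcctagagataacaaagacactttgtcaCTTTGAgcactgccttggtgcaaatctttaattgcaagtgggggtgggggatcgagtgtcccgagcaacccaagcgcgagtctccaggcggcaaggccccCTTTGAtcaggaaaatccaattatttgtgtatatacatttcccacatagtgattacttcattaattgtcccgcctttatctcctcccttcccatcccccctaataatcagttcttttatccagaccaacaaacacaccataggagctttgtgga
Tnfrsf19: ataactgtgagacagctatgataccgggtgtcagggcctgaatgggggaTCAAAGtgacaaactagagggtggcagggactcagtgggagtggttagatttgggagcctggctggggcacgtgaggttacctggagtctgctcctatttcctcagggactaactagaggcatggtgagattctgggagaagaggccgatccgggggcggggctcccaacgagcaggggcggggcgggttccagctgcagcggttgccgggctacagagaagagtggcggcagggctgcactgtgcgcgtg
T: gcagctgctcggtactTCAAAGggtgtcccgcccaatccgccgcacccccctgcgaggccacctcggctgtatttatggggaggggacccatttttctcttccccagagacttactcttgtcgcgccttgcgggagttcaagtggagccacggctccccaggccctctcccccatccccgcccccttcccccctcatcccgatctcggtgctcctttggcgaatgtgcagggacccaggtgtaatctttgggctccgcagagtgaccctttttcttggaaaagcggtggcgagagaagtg
Axin2: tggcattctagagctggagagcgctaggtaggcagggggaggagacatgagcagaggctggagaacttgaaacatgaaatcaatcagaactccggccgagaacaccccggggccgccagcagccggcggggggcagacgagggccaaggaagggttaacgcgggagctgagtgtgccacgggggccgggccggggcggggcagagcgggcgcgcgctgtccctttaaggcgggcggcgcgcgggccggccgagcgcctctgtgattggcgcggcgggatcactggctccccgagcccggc
The Sp5 window held 2 matches, 204 and 104 bases before the start site. The windows of Tnfrsf19 and T held 1 match each on the reverse strand, 201 and 234 bases before the start site, and that of Axin2 held 0. Where a gene had several windows, the one with the most matches is printed. Tnfrsf19 had 2 windows, of which 1 held the core. Across all 32851 RefSeq windows 16.0% held CTTTGA on either strand, and among tested genes with a window the share was 14.3%. Among genes higher by at least 2-fold after the pulse that had a window, 124 of 615 (20.2%) held it, against 89 of 660 (13.5%) among genes lower by at least 2-fold. A longer form, CTTTGATC, which contains the core, stood in 0.938% of all windows, in 16 of 615 (2.60%) of the genes higher by at least 2-fold and in 6 of 660 (0.909%) of those lower. Of the 8 Wnt feedback and target genes with a window, 4 held the core in at least 1 window. Such matches are a description of these letters in these windows, not of binding.

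Total counts of the 6 libraries ranged from 16018036 to 21875204. A principal component analysis of 1000 genes of high variance separated the groups on component 1 (89.9% of the variance), and component 2 (3.85%) set untreated replicate 3 apart. Counts of untreated replicate 3 gave a chi-square of 15.4 and 15.6 per degree of freedom against those of its group, where replicates 1 and 2 gave 1.94 and the early pairs 2.09 to 3.84. Of 13241 genes at 1 CPM or more, untreated replicate 3 was above both others at 39.3% and below both at 40.9%. Counts of list members are given with and without it where they differ by more than 1.5 times. Pou5f1, Nanog, Sox2, Sall4 and Lin28a, which mark pluripotent and epiblast cells, summed to 2419 to 2601 CPM in the untreated and 2680 to 2750 CPM in the early libraries, so both groups carried the markers of the labelled cells.

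After the early pulse 3694 genes were higher (23.0% of those tested) and 3320 were lower (20.7%), together 43.7%. Of these, 930 were higher by at least 2-fold (5.80%) and 924 were lower by at least 2-fold (5.76%). All counts of list members below stand beside the shares over all tested genes, 23.0% higher and 20.7% lower. For the lists below with 0 members called in a direction, 0 were also called in that direction by DESeq2 and 0 had an unadjusted p under 0.05 with edgeR, except where stated. The libraries of the groups did not overlap at 56.1% of tested genes, and the median log2 fold change over all tested genes was 0.02. Fitted instead to the authors' FPKM on the log2(FPKM + 1) scale, the higher genes made up 41.6% of the calls, and on counts 52.7%. The share called was 14.9% among genes with a mean under 1 CPM, 43.4% from 1 to 10 CPM and 51.5% at 100 CPM or more. In the plot of change against level, most Wnt feedback and target genes and most naive genes lie above the bulk of genes. Most epithelial and formative genes lie below it.

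**Figure D1:**
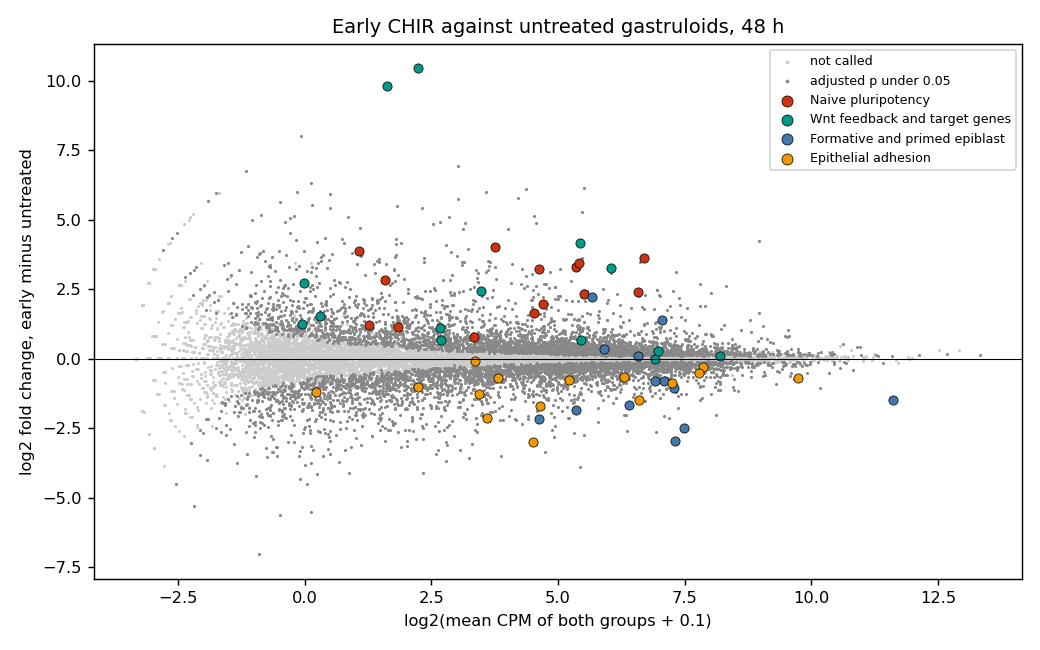
Log2 fold change of early over untreated gastruloids at 48 h (vertical axis) against mean level in log2 CPM (horizontal axis) for the 16041 tested genes, with called genes in dark grey and the members of 4 gene lists coloured. The called genes, 3694 higher and 3320 lower, lie on both sides of 0 over most of the range of levels; genes with 0 counts in a group are drawn at fitted values that depend on the prior count.

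Feedback and target genes of the Wnt pathway were higher nearly as a group. Of 14 tested Wnt feedback and target genes, 12 were higher and 0 lower, beside 23.0% higher among all tested genes, and their median log2 fold change was 1.39 beside 0.02 over all. Axin2, a scaffold of the destruction complex, was at 12.02, 12.3 and 13.7 CPM in the untreated and at 119, 117 and 125 CPM in the early libraries (log2 fold change 3.25 ± 0.07, adjusted p = 1.10e-15). Tnfrsf19, a TNF receptor family member switched on by Wnt, was at 4.63, 4.01 and 5.32 CPM untreated and 85.3, 79.2 and 81.8 CPM after the pulse (log2 fold change 4.15 ± 0.11, adjusted p = 9.85e-15). The groups lay far apart for both genes, with a narrow spread within each. Sp5, a zinc finger factor that binds at Wnt target genes, was at 0 in each untreated library and at 8.07, 6.75 and 12.9 CPM after the pulse, 502 counts against 0. With a floor of 3 counts for the whole group it was at least 170.4-fold higher, and at least 108 to 190-fold when 1 library at a time was left out; such bounds cover counting error only.

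Secreted and membrane antagonists were among the higher genes. Notum, an enzyme that strips the lipid from secreted Wnt, was at 2.801, 3.27 and 4.49 CPM untreated and 18.9, 17.6 and 19.3 CPM after the pulse (log2 fold change 2.42 ± 0.31, adjusted p = 3.83e-06). Dkk1, which blocks the Lrp co-receptors, was at 0.306, 0.198 and 0.192 and 1.98, 0.859 and 1.83 CPM (log2 fold change 2.72 ± 0.59, adjusted p = 9.61e-04), and Nkd1, which acts on Dishevelled, was higher by 1.10 ± 0.13. For each of these antagonists all early libraries lay above all untreated ones. The ligases Znrf3 and Rnf43, which remove Frizzled from the membrane, were higher by 0.66 ± 0.09 and 1.52 ± 0.32. Apcdd1, an inhibitor at the membrane, and Lgr5, the R-spondin receptor, were higher by 0.67 ± 0.16 and 1.26 ± 0.40. Lgr5 was not called without untreated replicate 2 or early replicate 1 or 3 (adjusted p 0.0577 to 0.0915) or on FPKM (0.568 to 0.827). Neither Ccnd1 (cyclin D1, 0.10 ± 0.08) nor Tcf7 (-0.02 ± 0.05), both often cited as Wnt targets, was called. Lef1, a TCF/LEF factor that is itself a target, was higher by 0.27 ± 0.10 (adjusted p = 0.0460); Lef1 was not called without untreated replicate 1 or 3 or early replicate 1 or 3 (adjusted p 0.0675 to 0.205) or on FPKM (0.277 to 0.353). On log2(FPKM + 1), which compresses low genes, 7 of the 14 were called higher. Dkk1, Rnf43 and Apcdd1 were not called on that scale (limma, adjusted p = 0.118, 0.0680 and 0.0562).

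Ligands and receptors moved in both directions. Of 15 tested Wnt ligands (19 names), 7 were higher and 2 lower, with a median of 0.69; in the fit of the 6 libraries of 48 h, which tests fewer genes, 4 of 5 were higher and 1 lower. Wnt8a, a ligand of the early streak, was at 1.37, 1.73 and 3.97 CPM untreated and 85.6, 86.98 and 87.5 CPM after the pulse (log2 fold change 5.26 ± 0.31, adjusted p = 1.53e-10). Wnt5b, a ligand of the gastrulating mesoderm, was at 2.09, 1.88 and 1.92 and 23.2, 21.5 and 22.3 CPM (log2 fold change 3.50 ± 0.15, adjusted p = 1.41e-12). Wnt3, which the embryo needs to form a streak, was at 2.903, 2.08 and 2.500 and 11.99, 11.3 and 14.8 CPM (log2 fold change 2.35 ± 0.28, adjusted p = 2.19e-06). Each of these ligands was at more than 2-fold its highest untreated level in every early library. Per transcript length, Wnt8a reached 28.04 ± 0.695 FPKM (mean ± SD), Wnt5b 7.32 ± 0.295 and Wnt3 2.91 ± 0.436, from 0.778 ± 0.443, 0.673 ± 0.0673 and 0.573 ± 0.106 untreated. Wnt3a, the main ligand of the tailbud, was at 0.0509, 0.0990 and 0.256 and 0.290, 0.123 and 0.0572 CPM, the groups overlapping. Lower members were Wnt4 (-1.92 ± 0.66) and Wnt9a (-0.86 ± 0.25), both under 2 CPM. Wnt4 was not called without untreated replicate 1 or 2 or early replicate 2 (adjusted p 0.0502 to 0.0874) or on FPKM (0.0668 to 0.418), and Wnt9a was not called without early replicate 3 (adjusted p 0.0552) or in 1 of 3 FPKM fits (0.0764). Porcn, which attaches the lipid that Wnt proteins need for secretion, was at 1.43, 1.19 and 2.05 CPM untreated and 50.7, 40.3 and 45.4 CPM after the pulse (log2 fold change 4.90 ± 0.21, adjusted p = 1.91e-12).

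Of 15 Wnt receptors 2 were higher and 5 lower, against backgrounds of 23.0% and 20.7%. Fzd10, a Frizzled of the posterior embryo, was at 4.63, 5.39 and 10.1 CPM untreated and 39.9, 38.6 and 42.6 CPM after the pulse (log2 fold change 2.63 ± 0.20, adjusted p = 4.03e-09). Ror2, a receptor tyrosine kinase for Wnt5a, was at 6.62, 6.23 and 9.23 and 49.3, 43.03 and 47.9 CPM (log2 fold change 2.69 ± 0.10, adjusted p = 6.04e-13). Both were separated between the groups, whereas other receptors went the other way. Fzd7, the Frizzled with the highest CPM at 48 h on the list, was lower at -0.96 ± 0.17, Fzd2 at -1.49 ± 0.12 and the co-receptor Lrp5 at -0.87 ± 0.06. Among 14 genes of TCF/LEF factors, β-catenin and the destruction complex, 3 were higher and 6 lower, most by small amounts, and untreated replicate 3 lay below both others at 12 of 13. Tcf7l1, the TCF factor that represses naive genes, was at 188, 186 and 149.9 CPM untreated and 122, 122 and 130.3 CPM after the pulse (log2 fold change -0.49 ± 0.14, adjusted p = 0.00723). Ctnnb1, which encodes β-catenin, was lower at -0.25 ± 0.04, and Gsk3b, the target of CHIR, was not called (-0.05 ± 0.07).

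Genes of the primitive streak were present at low to middle levels after the pulse. Of 13 tested streak genes, 7 were higher and 0 lower, with a median of 1.56. T was at 0.713, 0.297 and 0.769 CPM in the untreated libraries and at 39.2, 37.2 and 45.4 CPM in the early ones (log2 fold change 6.12 ± 0.33, adjusted p = 4.75e-11). Eomes, a T-box factor of the anterior streak and endoderm, was at 5.19, 5.94 and 6.15 and 33.8, 35.2 and 37.9 CPM (log2 fold change 2.63 ± 0.45, adjusted p = 1.18e-04). Evx1, a homeobox factor of the posterior streak, was at 0.153, 0.0990 and 0.192 and 7.11, 4.66 and 8.35 CPM (log2 fold change 5.48 ± 0.73, adjusted p = 6.59e-06). The groups were separated at all 3, and Evx1 stayed below 10 CPM. Fgf8, a growth factor of the streak, was higher by 2.28 ± 0.29, and Snai1, which drives cells out of the epithelium, by 1.56 ± 0.28. Mesp1 (0.153, 0 and 0.0641 and 0.145, 0.0614 and 0.0572 CPM) and Gsc (0.306, 0.198 and 0.256 and 0.145, 0.123 and 0.286 CPM), which mark later mesoderm and anterior streak, were not called. Foxa2, of anterior streak and endoderm, was at 0.356, 0.396 and 0.577 CPM untreated and 0.822, 0.675 and 1.43 CPM after the pulse, without overlap (adjusted p = 0.101). DESeq2 called Foxa2 higher (adjusted p = 0.0319), as did the fit of the 6 libraries of 48 h (0.0231), that with no filter (0.00439) and that without the 3 control libraries numbered 3 (0.0307). Mixl1, of mesendoderm, was at 0.866, 0.841 and 0.769 CPM untreated and 2.08, 1.41 and 2.12 CPM after the pulse, without overlap (log2 fold change 1.18 ± 1.14, adjusted p = 0.434), and was called where only the 6 libraries of 48 h were fitted (adjusted p = 0.00184). In that fit 10 of 11 streak genes were higher and 1 lower, and with no filter 9 and 1.

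Caudal genes, which mark the tailbud and its neuromesodermal progenitors, were higher in 8 of 13 and lower in 1, with a median of 2.28. Nkx1-2, a homeobox factor of those progenitors, was at 1.37, 1.19 and 1.22 CPM untreated and 44.9, 39.7 and 50.1 CPM after the pulse (log2 fold change 5.15 ± 0.30, adjusted p = 1.18e-10). Sp8, a zinc finger factor of the tailbud, was at 2.19, 2.33 and 2.18 and 17.9, 18.3 and 20.7 CPM (log2 fold change 3.08 ± 0.17, adjusted p = 7.79e-11). Cdx1, which sets posterior identity, had 0 counts untreated and 6.62, 5.71 and 5.49 CPM after the pulse, at least 111-fold higher against the floor (70.3 to 115-fold when 1 library was left out). Cdx2, its relative, was higher by 4.31 ± 0.79 at 2.997, 2.52 and 3.43 CPM. In untreated gastruloids Cdx1 was thus at 0, while Nkx1-2 and Sp8 were at 1.19 to 2.33 CPM. The 2 presomitic factors named next were under 1 CPM in both groups. Tbx6, which specifies presomitic mesoderm, was at 0.968, 0.594 and 0.962 CPM untreated and 0.483, 0.614 and 0.515 CPM after the pulse, and Msgn1 had 3 counts over the untreated and 1 over the early libraries. Greb1 was the lower member (-0.46 ± 0.17); Greb1 was not called without untreated replicate 1 or 2 or early replicate 1 or 2 (adjusted p 0.0629 to 0.159) or on FPKM (0.0595 to 0.279). Among the 8 higher members Cyp26a1, which degrades retinoic acid, stayed under 1 CPM, and Cyp26a1 was not called without untreated replicate 1, 2 or 3 or early replicate 1 or 3 (adjusted p 0.0688 to 0.210) or on FPKM (0.137 to 0.590), nor with the replicate number as a block (0.0662).

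Hox genes pattern the body axis in the order of their groups. Of 12 tested Hox genes of groups 1 to 4, 4 were higher and 0 lower. Hoxb1 was at 0.0509, 0.0990 and 0.256 CPM untreated and 16.5, 16.02 and 15.7 CPM after the pulse (log2 fold change 6.92 ± 1.42, adjusted p = 6.43e-04), with a log2 fold change of 7.62 without untreated replicate 3. Hoxb1 was near 0 in the untreated libraries, and the groups were far apart. Hoxb2 had 2 counts over the untreated and 141 over the early libraries, a ratio of 71.8 (95% counting interval 19.5 to 598). Hoxd1 was at 0.204, 0.198 and 0 and 0.242, 0.737 and 0.801 CPM (log2 fold change 1.95 ± 0.72, adjusted p = 0.0344). Hoxb2 was not called without untreated replicate 1, 2 or 3 or early replicate 1, 2 or 3 (adjusted p 0.0639 to 0.114) or in 2 of 3 FPKM fits (0.199 to 0.254), and Hoxd1 was not called without untreated replicate 1, 2 or 3 or early replicate 2 or 3 (adjusted p 0.0508 to 0.122) or in 2 of 3 FPKM fits (0.412 to 0.491); leaving out any library but early replicate 1 brought the count from 4 to 2, and it was 8 without the 3 control libraries numbered 3. Hoxa2 gave a ratio of 14.3 (2.17 to 603) and Hoxb3 one of 8.15 (1.91 to 73.0) from 1 and 2 untreated counts, and Hoxa4, with 0 untreated counts, was at least 3.39-fold higher. For Hoxa4 this bound ran from 2.16 to 3.998 when 1 library was left out. Hox groups 5 to 13 had 14 tested genes of 27, and 0 were called higher and 0 lower with edgeR, with 1 higher by DESeq2, 1 without untreated replicate 3 or in the fit of the 6 libraries of 48 h, and 4 without the 3 control libraries numbered 3. Hoxa7 was called higher with no filter (edgeR, adjusted p = 6.80e-05), in the fit of the 6 libraries of 48 h (edgeR, 7.84e-04) and on FPKM (limma, 0.00873 to 0.0268). Hoxa5 was called higher with no filter as well (edgeR, adjusted p = 1.71e-04). Counts in the early libraries against the untreated were 21 against 1 for Hoxb13 (ratio 21.4, 3.44 to 884), 15 against 1 for Hoxa10 (15.3, 2.35 to 643) and 13 against 0 for Hoxa5, at least 4.41-fold higher (2.80 to 4.998 when 1 library was left out). Hoxd13 had the highest level among them, 1.73, 1.63 and 2.05 CPM untreated and 1.69, 0.859 and 1.66 CPM after the pulse, with overlap.

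**Figure D2:**
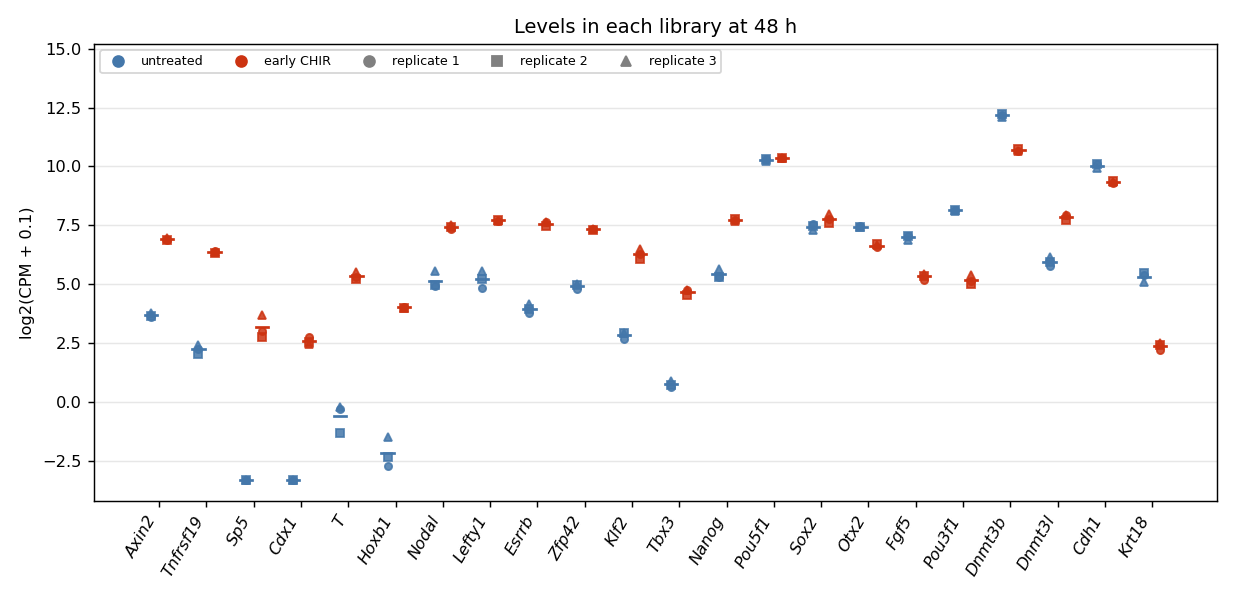
Level of each labelled gene (horizontal axis) in log2(CPM + 0.1) (vertical axis) in the 3 untreated and 3 early libraries of 48 h, one point per library and a line at the mean of the log values. Wnt, streak and naive genes lie higher in every early library, Dnmt3b, Pou3f1, Fgf5 and Krt18 lower, and Pou5f1 close between the groups.

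Naive pluripotency genes shifted nearly as a group. Of 14 tested members 13 were higher, each by at least 2-fold, and 0 lower, with a median of 2.61 beside 0.02 over all genes. Esrrb, a nuclear receptor, was at 13.8, 15.3 and 17.9 CPM in the untreated and at 197, 178 and 198 CPM in the early libraries (adjusted p = 7.01e-14). Klf2, a Krüppel-like factor, was at 6.31, 7.62 and 7.63 and 77.4, 66.97 and 89.2 CPM (log2 fold change 3.44 ± 0.19, adjusted p = 6.82e-11). Tfcp2l1, a factor that acts downstream of both LIF and Wnt, was at 7.74, 7.52 and 7.31 and 73.6, 74.5 and 75.2 CPM (log2 fold change 3.30 ± 0.10, adjusted p = 2.63e-14). At these 3 factors every early library lay far above every untreated one. Nr5a2, a nuclear receptor that drives Pou5f1 in the early epiblast, was at 4.53, 4.304 and 5.38 and 46.5, 44.6 and 42.9 CPM (log2 fold change 3.24 ± 0.14, adjusted p = 3.28e-12). Tbx3, a T-box factor, was at 1.48, 1.53 and 1.73 and 26.9, 22.9 and 26.5 CPM, and Prdm14, which restrains FGF signalling and DNA methylation in naive cells, at 0.153, 0.297 and 0.321 and 4.495, 3.25 and 3.55 CPM (log2 fold change 3.87 ± 0.39, adjusted p = 2.22e-07). Gbx2 was not called (6.16, 7.87 and 8.08 CPM untreated, 11.5, 12.6 and 14.2 CPM early, adjusted p = 0.0828), though it was by DESeq2 (adjusted p = 0.0405). Klf4 remained low, at 2.09, 2.37 and 2.05 and 5.27, 3.499 and 5.55 CPM (log2 fold change 1.14 ± 0.19, adjusted p = 7.30e-05). Untreated replicate 3 was above both others of its group at 9 of the 12 naive genes at 1 CPM or more, and without it 13 members were again higher.

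General pluripotency genes did not move together. Of 12 tested, 2 were higher and 2 lower. Nanog, a factor of naive cells and of the posterior epiblast, was at 39.2, 40.1 and 49.7 CPM untreated and 210.4, 218 and 204 CPM after the pulse (log2 fold change 2.30 ± 0.12, adjusted p = 3.78e-11), and Dppa5a was higher by 0.80 ± 0.09. Utf1 and Zscan10 were lower, at -0.88 ± 0.14 and -0.40 ± 0.06. The core factor Pou5f1 was at 1277, 1278 and 1210.3 and 1300.2, 1303 and 1309 CPM and was not called (log2 fold change 0.06 ± 0.22, adjusted p = 0.866). Its partner Sox2 was at 189, 177 and 159.8 and 218, 196 and 252 CPM without overlap (log2 fold change 0.34 ± 0.22, adjusted p = 0.239), and was called where only the 6 libraries of 48 h were fitted (adjusted p = 0.00517). In that fit 5 of the 12 were higher and 4 lower, and without untreated replicate 3 alone 4 were lower.

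Formative and primed epiblast genes were lower in 9 of 13 and higher in 3, with a median of -1.05. Pou3f1, a POU factor of the formative state, was at 286, 283 and 274 CPM untreated and 35.3, 31.7 and 41.6 CPM after the pulse (adjusted p = 5.23e-14). Sall2, a zinc finger factor of primed cells, was at 312, 297 and 308 and 53.9, 55.2 and 52.7 CPM (log2 fold change -2.502 ± 0.14, adjusted p = 6.24e-11). Foxd3, which primes enhancers of the epiblast, was at 67.1, 62.6 and 61.03 and 16.8, 15.1 and 21.6 CPM (log2 fold change -1.83 ± 0.13, adjusted p = 2.56e-09). The groups did not overlap at any of the 3. Otx2, which directs entry into the formative state, was lower at -0.80 ± 0.15 at 94.3, 104 and 102 CPM, a smaller change than for Pou3f1 or Sall2, and Sox3 was lower at -2.18 ± 0.20. Members on the other side included Fst, an activin antagonist (2.21 ± 0.23), and Etv1 (0.37 ± 0.12). Etv1 was not called without untreated replicate 3 or early replicate 2 (adjusted p 0.0691 to 0.0970) or on FPKM (0.776 to 0.849). At 9 of the 13 formative genes untreated replicate 3 lay below both other untreated libraries.

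Enzymes that write and remove DNA methylation, which is low in naive cells and high in the primed epiblast, were called in 8 of 11 cases, 4 in each direction. Dnmt3b, a de novo methyltransferase, was at 4717, 4761 and 4421 CPM untreated and 1626, 1703 and 1628 CPM after the pulse (log2 fold change -1.49 ± 0.07, adjusted p = 5.79e-12), and Dnmt3a was lower at -0.73 ± 0.09. Dnmt3l, their catalytically inactive cofactor, was at 55, 61.8 and 70.8 and 243, 209.8 and 244 CPM (log2 fold change 1.90 ± 0.10, adjusted p = 6.92e-11), separated in the opposite direction. Tet2, an enzyme that oxidises methylcytosine, was at 5.19, 6.48 and 10.1 and 50.7, 44.6 and 41.8 CPM (log2 fold change 2.67 ± 0.22, adjusted p = 1.24e-08), whereas Tet3 was at 65.7, 67.98 and 52.8 and 25.4, 24.8 and 26.7 CPM (log2 fold change -1.28 ± 0.12, adjusted p = 9.88e-08). Per transcript length Tet3 was at 4.56 ± 0.283 FPKM and Tet2 at 0.640 ± 0.194 untreated, and after the pulse Tet3 was at 1.93 ± 0.0905 and Tet2 at 3.73 ± 0.293. Zfp57, which keeps imprints methylated, was higher by 1.95 ± 0.19. Tet1 (0.01 ± 0.13) and Uhrf1 (0.09 ± 0.05) were not called. The maintenance enzyme Dnmt1 was higher by 0.11 ± 0.04, and Dnmt1 was not called without untreated replicate 1 or 2 or early replicate 1, 2 or 3 (adjusted p 0.0599 to 0.125) or on FPKM (0.404 to 0.515), nor with no filter (0.167).

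Germline and other early embryonic genes were mixed. Of 13 germ cell genes 7 were higher and 1 lower (3 lower in the fit of the 6 libraries of 48 h), the naive factors Prdm14 and Dppa3 being 2 of the 7. Tfap2c, a factor of germ cells and of naive cells, was at 1.07, 0.990 and 1.09 CPM untreated and 2.997, 4.42 and 3.43 CPM after the pulse (log2 fold change 1.77 ± 0.33, adjusted p = 2.59e-04), and Tdrd1 was the lower member (-0.89 ± 0.13). Prdm1, the inducer of germ cell fate, was higher by 1.00 ± 0.23 at 7.11, 8.72 and 8.01 CPM. Platr genes, non-coding RNAs named for their association with pluripotency, were higher in 11 of 17 tested and lower in 1 (28 names). Platr7 was at 1.68, 2.23 and 3.97 and 14.5, 10.99 and 12.2 CPM (log2 fold change 2.29 ± 0.26, adjusted p = 8.48e-07) and Platr14 was higher by 1.10 ± 0.15. Platr10 was the lower one (-0.18 ± 0.06), and Platr10 was not called without untreated replicate 2 or 3 or early replicate 1, 2 or 3 (adjusted p 0.0590 to 0.106) or on FPKM (0.126 to 0.168). The 6 tested two-cell-like genes were all Zscan4 copies, 0 were called higher and 0 lower, and their counts are uncertain because the copies are nearly identical.

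Nodal signalling, which patterns the epiblast and the streak, had its ligand, co-receptor and feedback inhibitors higher and a pair of its receptor genes lower. Of 15 tested Nodal pathway genes 7 were higher and 4 lower. Nodal itself was at 30.2, 31.3 and 46.7 CPM untreated and 164, 174 and 183 CPM after the pulse (log2 fold change 2.28 ± 0.20, adjusted p = 3.27e-08). Lefty1, its secreted inhibitor, was at 28.7, 37.2 and 46.7 and 208, 213 and 207 CPM, and Tdgf1, the co-receptor Cripto, at 132, 149 and 279 and 441, 438 and 429.8 CPM (log2 fold change 1.23 ± 0.23, adjusted p = 2.63e-04). Untreated replicate 3 was the highest of its group for Nodal and Lefty1 and still lay below every early library. Pcsk6, a protease that activates the Nodal precursor, was higher by 1.43 ± 0.13. The receptors Acvr1b and Acvr2b were lower at -0.44 ± 0.10 and -0.36 ± 0.09, and Smad2 (0.03 ± 0.06) was not called. Foxh1, the DNA-binding partner of Smad2, and the protease Furin were the other lower members (-0.39 ± 0.13 and -0.26 ± 0.10). Foxh1 was not called without early replicate 1 (adjusted p 0.0597), and Furin was not called without untreated replicate 1 or 2 or early replicate 1 or 3 (adjusted p 0.0641 to 0.179) or in 1 of 3 FPKM fits (0.0630), so that 2 members were lower without early replicate 1.

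BMP pathway genes were called in 9 of 17 cases, 5 higher and 4 lower, beside 23.0% and 20.7% of all tested genes. Bmp4, the ligand that starts the pathway in the embryo, was at 6.57, 5.74 and 8.27 CPM untreated and 5.99, 4.24 and 5.78 CPM after the pulse and was not called. Id4 was at 0.560, 0.396 and 0.321 and 3.05, 3.01 and 2.86 CPM (log2 fold change 2.77 ± 0.31, adjusted p = 7.93e-07) and Msx1, a homeobox target of BMP, at 7.38, 7.27 and 6.15 and 1.35, 0.859 and 1.26 CPM (log2 fold change -2.56 ± 0.63, adjusted p = 0.00279). Targets of the pathway differed in direction: Id1 (1.44 ± 0.37) and Id4 were higher, Id2 (-1.05 ± 0.37) and Msx1 lower, and Id3 (-0.10 ± 0.13) was not called. Id2 was not called without untreated replicate 1 or 2 or early replicate 1 or 2 (adjusted p 0.0706 to 0.0891) or in 2 of 3 FPKM fits (0.0833 to 0.107). Chrd, an antagonist, was also lower, and Chrd was not called without untreated replicate 2 or 3 or early replicate 1, 2 or 3 (adjusted p 0.0936 to 0.184) or in 2 of 3 FPKM fits (0.0755 to 0.122), nor with the replicate number as a block or without the 3 control libraries numbered 3 (0.0582 to 0.0830); 2 of the 4 lower members were left without untreated replicate 2 or early replicate 1 or 2. The inhibitory Smad7 was higher by 0.61 ± 0.08 and the ligand gene Bmp7 by 1.501 ± 0.15.

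Among 12 FGF ligands and receptors 5 were higher and 4 lower, beside 23.0% and 20.7% of all tested genes. Fgf4, the main FGF of pluripotent cells, was at 195, 200.3 and 178 CPM untreated and 91.4, 88.5 and 87.8 CPM after the pulse (log2 fold change -1.10 ± 0.09, adjusted p = 2.29e-08), and Fgf5, of the formative epiblast, was at 132, 134 and 119 and 36.7, 40.8 and 43.5 CPM. Fgf15, an ERK-responsive ligand gene, was lower at -0.75 ± 0.14, while Fgf8 was higher, as was the receptor gene Fgfr4 (1.19 ± 0.21). Without untreated replicate 2, untreated replicate 3 or early replicate 1, 3 members were higher in place of 5. Feedback genes of ERK, the kinase downstream of FGF, split as well, 5 higher and 3 lower of 12. Il17rd, an inhibitor of FGF receptors, was at 81.99, 81.04 and 75.8 and 175, 173 and 180.3 CPM (log2 fold change 1.15 ± 0.08, adjusted p = 1.29e-09), and Spred1 was higher by 1.00 ± 0.09. Dusp6, a phosphatase of ERK and a usual readout of its activity, was at 116, 113 and 105 and 69.1, 64.9 and 64.5 CPM (log2 fold change -0.75 ± 0.12, adjusted p = 4.16e-05). Related feedback genes went in opposite directions, Spry2 at 0.81 ± 0.12 and Spry4 at -0.29 ± 0.08.

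Of 8 tested genes of the LIF and STAT3 pathway, which supports naive cells, 4 were higher and 2 lower. For this and the other lists of this paragraph, the shares over all tested genes were 23.0% higher and 20.7% lower. Il6st, the shared signalling receptor gp130, was at 23.9, 24.5 and 24.9 CPM untreated and 76.3, 72.6 and 73.3 CPM after the pulse (log2 fold change 1.60 ± 0.07, adjusted p = 6.94e-12), and Lifr was higher by 0.92 ± 0.08. Socs3, a feedback target of STAT3, was at 1.17, 1.04 and 1.67 and 3.05, 3.74 and 4.06 CPM (log2 fold change 1.497 ± 0.26, adjusted p = 1.44e-04). Lif itself was not called (-0.01 ± 0.14), and Cish, a feedback gene of cytokine signalling, was lower at -1.17 ± 0.19. Notch pathway genes were higher in 2 and lower in 4 of 12, with the ligand genes Dll1 and Dll3 at -1.29 ± 0.25 and -0.97 ± 0.25 and Jag1 at 0.86 ± 0.12. Without untreated replicate 2 or early replicate 3, 1 Notch gene was higher. Retinoic acid genes were higher in 3 of 10 and lower in 1. The count of higher ones was 1 without early replicate 1 or on FPKM, 6 with no filter and 7 without the 3 control libraries numbered 3. Crabp2, which delivers retinoic acid to its receptors, was at 34.99, 33.2 and 35.3 CPM untreated and 7.202, 8.04 and 7.67 CPM after the pulse (log2 fold change -2.18 ± 0.15, adjusted p = 1.58e-09), the lower member. Of 7 Hedgehog genes 2 were higher and 2 lower, none by 2-fold, and of 6 Hippo/YAP targets 2 were higher and 3 lower, with Ccn2 at 1.32 ± 0.21 and Ajuba at -0.50 ± 0.10. Without untreated replicate 3 each of these 2 lists had 1 higher member, as did the Hedgehog list without early replicate 1 or 3.

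Epithelial adhesion genes were lower in 13 of 15 and higher in 0, beside 20.7% lower among all tested genes, with a median of -0.88. Cdh1, E-cadherin, was at 1088, 1087 and 967 CPM untreated and 637, 665 and 655 CPM after the pulse (log2 fold change -0.68 ± 0.16, adjusted p = 0.00187). The keratin gene Krt18 was at 42.4, 43.8 and 34.3 and 4.54, 5.22 and 5.55 CPM and its partner Krt8 at 21.5, 19.8 and 17.2 and 4.74, 4.11 and 4.58 CPM (log2 fold change -2.12 ± 0.24, adjusted p = 1.21e-06). Cldn6, a tight junction gene of pluripotent cells, was at 149, 147 and 136 and 45.97, 55.5 and 51.3 CPM (log2 fold change -1.502 ± 0.08, adjusted p = 4.38e-11). The groups did not overlap at any of these genes, and the margin between the groups was wider for the keratins and Cldn6. The splicing regulators Esrp1 and Esrp2, which maintain epithelial isoforms, were lower at -0.88 ± 0.08 and -1.28 ± 0.16. Esrp2 had a change of 0 on log2(FPKM + 1) and log2(FPKM + 0.1) and was not called there. Dsp was not called (-0.09 ± 0.12), and neither was Krt19 (1.22, 1.83 and 1.41 and 0.628, 0.859 and 0.458 CPM), though DESeq2 called it (adjusted p = 0.0339).

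Mesenchymal genes did not show the reverse for every member. Of 11, 6 were higher and 2 lower. Zeb1, a repressor of E-cadherin, was at 1.37, 1.58 and 1.73 CPM untreated and 6.43, 4.36 and 4.86 CPM after the pulse (log2 fold change 1.75 ± 0.18, adjusted p = 2.83e-07), and Snai2, a relative of Snai1, at 1.43, 1.63 and 1.86 and 0.483, 0.491 and 0.629 CPM (log2 fold change -1.60 ± 0.34, adjusted p = 9.72e-04). Cdh2, N-cadherin, was at 15.9, 14.2 and 13.8 and 14.9, 16.1 and 16.2 CPM, with overlap (0.10 ± 0.13). Fn1, fibronectin, was higher by 1.03 ± 0.24. Matrix and integrin genes were higher in 7 and lower in 4 of 17, beside 23.0% and 20.7% of all tested genes. Lamc1, a laminin chain of the basement membrane, was higher by 0.85 ± 0.05 and Nid2, which links laminin to collagen, by 0.81 ± 0.07. The laminin receptor chains Itga3 and Itga6 were lower, at -2.13 ± 0.08 and -0.92 ± 0.05. Several matrix genes were higher, and both of these receptor genes lower. Itgb1, their shared partner, was lower at -0.17 ± 0.05, and Itgb1 was not called without untreated replicate 1 or 2 or early replicate 1 or 3 (adjusted p 0.0504 to 0.0840).

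Guidance genes, whose Eph, ephrin, semaphorin and netrin products steer cells at contacts, were higher in 6 and lower in 8 of 23. The shares over all tested genes were 23.0% higher and 20.7% lower. Ntn1, netrin 1, was at 0.917, 1.43 and 1.54 CPM untreated and 94.1, 81.8 and 95.4 CPM after the pulse (log2 fold change 6.13 ± 0.22, adjusted p = 2.44e-13). Its receptor gene Unc5b was at 170.5, 164 and 161 and 66.4, 64.7 and 66.9 CPM (log2 fold change -1.32 ± 0.13, adjusted p = 1.59e-07). Epha2, an Eph receptor of pluripotent and streak cells, was at 49.6, 48.8 and 46.99 and 261, 239 and 279 CPM (log2 fold change 2.42 ± 0.12, adjusted p = 2.62e-11). Ligand and receptor genes of netrin were separated in opposite directions. Epha7 and Epha1 were higher by 1.78 ± 0.10 and 1.26 ± 0.08, and Sema3f was lower at -1.57 ± 0.14. The count of lower members was 5 without untreated replicate 1, untreated replicate 2, early replicate 1 or early replicate 2. Epha4 was among the higher ones, and Epha4 was not called without untreated replicate 1, 2 or 3 or early replicate 1, 2 or 3 (adjusted p 0.0790 to 0.123) or on FPKM (0.129 to 0.275), nor with DESeq2 size factors or the replicate number as a block (0.0502 to 0.0647).

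**Figure D3:**
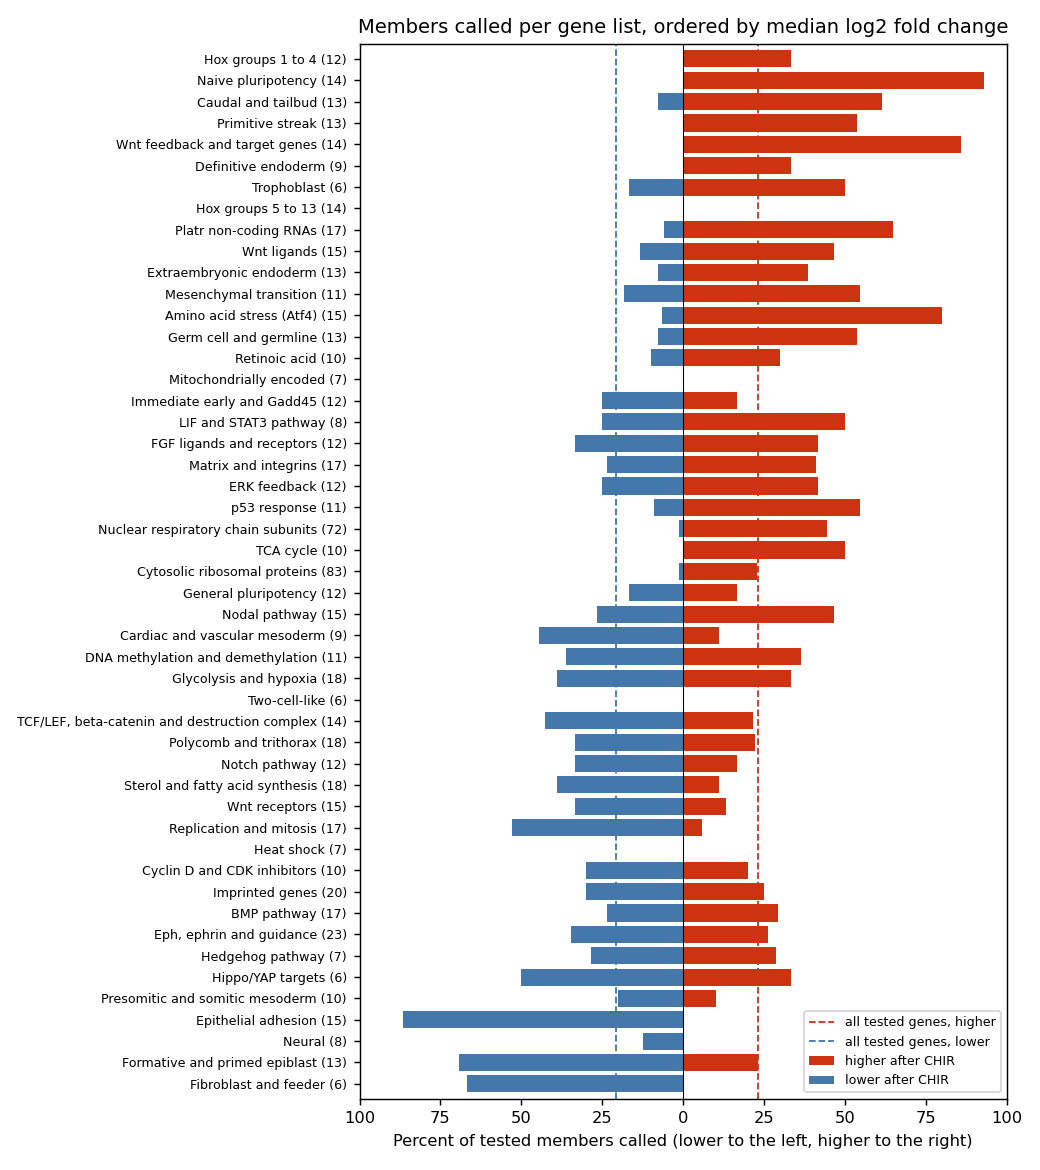
Percent of tested members called higher and lower after the early pulse (horizontal axis, bars to the right and left of 0) in each gene list (vertical axis), with the number tested in parentheses. Naive genes were called higher in 13 of 14 and Wnt feedback and target genes in 12 of 14. Epithelial genes were called lower in 13 of 15.

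Among genes of cells beyond the epiblast, the share of defining markers called differed by cell type, beside 43.7% among all tested genes. It was 0 of 3 tested for definitive endoderm and for neural cells, and 0 of 2 for presomitic mesoderm. For extraembryonic endoderm 3 of 6 were higher, and for trophoblast 1 of 2 was lower. All 3 tested markers of endothelium and blood and all 4 of fibroblast and feeder cells were lower, though Gata1, Col1a1 and Col1a2 lost their call in some fits, as given below. Of 9 tested definitive endoderm genes 3 were higher and 0 lower (1 lower without early replicate 3). Trh, which encodes thyrotropin-releasing hormone, was at 46.5, 45.6 and 61.3 CPM untreated and 917, 945 and 985 CPM after the pulse (log2 fold change 4.22 ± 0.22, adjusted p = 2.94e-11). Hhex, a homeobox factor of endoderm that is also present in early stem cell states, was at 3.11, 3.36 and 2.69 and 6.33, 5.95 and 7.38 CPM (log2 fold change 1.09 ± 0.17, adjusted p = 4.76e-05). Sox17, the defining factor of endoderm, stayed under 1 CPM in every library (0.153, 0.198 and 0.0641 and 0.435, 0.184 and 0.629), and Cer1 and Gsc were not called. Trh was separated between the groups by a wide margin, and Sox17 remained near 0 in both. Gata6 was called higher (1.44 ± 0.48) with overlapping libraries, and Gata6 was not called without untreated replicate 3 or early replicate 1 or 3 (adjusted p 0.0704 to 0.125) or on FPKM (0.0738 to 0.0990). Gata4, its relative, was higher by 0.82 ± 0.25, and Gata4 was not called without untreated replicate 1 or early replicate 1 (adjusted p 0.0582 to 0.0583) or on FPKM (0.0599 to 0.114). These are among 6 defining markers of extraembryonic endoderm, of which 3 were higher and whose sum was 16.0 to 18.4 CPM untreated and 9.82 to 21.9 CPM after the pulse. The wider extraembryonic endoderm list was higher in 5 of 13 and lower in 1, with a sum of 454 to 459 and 571 to 633 CPM, and 3 were higher without untreated replicate 1 or early replicate 1 or 3. The part of such cells in the results was not tested.

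Of 10 presomitic genes 1 was higher and 2 lower, beside 23.0% higher and 20.7% lower among all tested genes. Of 9 cardiac and vascular genes 1 was higher and 4 lower. Of 8 neural genes 0 were higher and 1 lower (1 higher at an unadjusted p under 0.05, and 1 higher and 3 lower in the fit of the 6 libraries of 48 h). The presomitic list summed to 45.8 to 47.1 CPM untreated and 26.9 to 28.6 CPM after the pulse, with Rspo3 (2.59 ± 0.51), an R-spondin, as the higher member and Dll1 and Dll3 as the lower ones. Kdr, a receptor of early mesoderm and endothelium, was at 0.153, 0.0990 and 0.192 CPM untreated and 1.55, 1.35 and 1.602 CPM after the pulse (log2 fold change 3.32 ± 0.46, adjusted p = 1.03e-05). Tal1, a factor of blood, was at 5.19, 4.55 and 5.19 and 1.11, 0.798 and 0.687 CPM (log2 fold change -2.496 ± 0.22, adjusted p = 3.99e-08), and Gata1 was lower at -1.49 ± 0.45 (-2.27 without early replicate 1). Gata1 was not called without early replicate 2 or 3 (adjusted p 0.0539 to 0.0589). The 4 endothelium and blood markers summed to 8.02 to 8.50 CPM untreated and 2.03 to 2.95 CPM after the pulse, with 3 of 3 tested lower. Nes, an intermediate filament gene of neural and epiblast cells, was lower at -1.12 ± 0.16, and Sox1, of neural cells, was not called (1.63, 1.43 and 1.99 and 1.06, 0.859 and 0.858 CPM). Fibroblast and feeder markers summed to 24.0 to 29.2 CPM untreated and 7.35 to 10.3 CPM after the pulse, with 4 of 4 tested lower. The drop in Dcn, decorin, from 5.86, 6.28 and 7.500 to 0.773, 1.04 and 0.343 CPM, and in Thy1, from 14.9, 16.8 and 17.7 to 5.800, 7.98 and 6.69 CPM, makes up most of that sum, and Postn and Lum had at most 1 count over each group. Col1a2 was not called without untreated replicate 3 or early replicate 1 or 3 (edgeR, adjusted p 0.0585 to 0.0814) or on log2(FPKM + 1) (limma, 0.346). Col1a1, under 1 CPM in every library, was not called on log2(FPKM + 1) (limma, adjusted p = 0.0836). Whether fibroblast or feeder cells had a part in genes lower after the pulse was not tested. The 5 defining trophoblast markers summed to 4.40 to 5.65 and 3.14 to 3.68 CPM, and Tpbpa was at 0 in all 6 libraries. The wider trophoblast list was higher in 3 of 6 and lower in 1, with a sum of 11.6 to 12.5 CPM untreated and 43.2 to 48.4 CPM after the pulse. Its higher members were Eomes, Cdx2 and Tfap2c, which the streak, caudal and germ cell lists also hold, and Krt7, a keratin, was the lower one (-2.54 ± 0.38).

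Energy metabolism showed changes of small size with a few exceptions. Of 18 glycolysis and hypoxia genes 6 were higher and 7 lower, beside 23.0% and 20.7% of all tested genes. The glucose transporter gene Slc2a1 was at 469.8, 443 and 424 CPM untreated and 109, 105 and 113 CPM after the pulse (log2 fold change -2.04 ± 0.18, adjusted p = 4.70e-08). Slc2a3, another glucose transporter, was at 92.4, 96.3 and 97.6 and 373, 333 and 352 CPM (log2 fold change 1.89 ± 0.26, adjusted p = 1.18e-05). Per transcript length Slc2a1 went from 113 ± 4.62 to 26.3 ± 1.06 FPKM and Slc2a3 from 18.4 ± 0.795 to 65.8 ± 4.02. Pfkp, a phosphofructokinase, was higher by 1.31 ± 0.06 and Pdk1, which keeps pyruvate out of mitochondria, by 0.89 ± 0.11, while Ldha, lactate dehydrogenase, was lower at -0.39 ± 0.05. Nuclear genes of the respiratory chain were higher in 32 of 72 and lower in 1, beside 23.0% and 20.7% of all genes, with a median of 0.14. No member reached 2-fold. This count depended on the data used: it was 21 without untreated replicate 1 and 17 on log2(FPKM + 1). Without early replicate 3, 3 were lower. Of 10 genes of the TCA cycle 5 were higher and 0 lower, led by Sdha (0.34 ± 0.06) and Ogdh (0.28 ± 0.04). The 7 tested mitochondrially encoded genes had 0 called higher and 0 lower with edgeR, 2 higher without untreated replicate 3 or in a fit of only the 6 libraries of 48 h, and untreated replicate 3 was above both others at 6 of 7. With no filter mt-Co1, mt-Cytb, mt-Nd5 and mt-Nd6 were called higher (edgeR, adjusted p 1.06e-15 to 5.05e-06). Without the 3 control libraries numbered 3, mt-Co1, mt-Cytb and mt-Nd5 were (0.0109 to 0.0426).

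Of 83 genes of cytosolic ribosomal proteins 19 were higher and 1 lower, a share of higher genes near the background of 23.0%, with a median of 0.08. Without untreated replicate 1 or 3, or early replicate 2 or 3, 8 to 12 were higher, and 2 to 3 were lower without early replicate 2 or 3. Genes of the amino acid stress response under Atf4 were higher in 12 of 15 and lower in 1, with a median of 0.40, and untreated replicate 3 was above both others at 11 of 15. Asns, asparagine synthetase, was at 186, 194 and 197 CPM untreated and 408, 404 and 401 CPM after the pulse (log2 fold change 1.07 ± 0.08, adjusted p = 2.01e-09), and Sesn2, a stress-induced inhibitor of mTORC1, at 176, 162 and 164 and 299.9, 299 and 326 CPM (log2 fold change 0.88 ± 0.10, adjusted p = 1.73e-06). Both were separated between groups. Ddit4 was the lower member (-0.28 ± 0.09), and Ddit4 was not called without untreated replicate 3 or early replicate 1 or 2 (adjusted p 0.0558 to 0.0646). Sterol synthesis genes were lower in 7 and higher in 2 of 18, led by Hmgcs1 (-0.64 ± 0.07), and untreated replicate 3 was below both others at 14 of 18. Without it 1 was higher. Heat shock genes gave 0 calls in each direction of 7 with edgeR, with 1 higher and 2 lower at an unadjusted p under 0.05, and 1 was called lower without early replicate 3. Hsp90aa1 and Hspa1b were called lower in the fit of the 6 libraries of 48 h (edgeR, adjusted p 0.00700 and 0.0279). They were also called lower with no filter (0.00968 and 0.0198) and without the 3 control libraries numbered 3 (0.0373 and 0.0356).

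The p53 list was higher in 6 of 11 and lower in 1. Trp53, which encodes p53 itself, was higher by 0.40 ± 0.05. Cdkn1a, the CDK inhibitor p21, was at 61.3, 60.1 and 58.4 CPM untreated and 272, 281 and 275 CPM after the pulse (log2 fold change 2.202 ± 0.07, adjusted p = 2.63e-14). Bbc3, a cell death gene of the same list, was lower at -0.64 ± 0.07. Without untreated replicate 2 or early replicate 2, 3 members were higher in place of 6. Ccnd2, cyclin D2, was at 5.296, 4.75 and 5.64 and 35.3, 31.7 and 32.95 CPM (log2 fold change 2.68 ± 0.14, adjusted p = 2.93e-11). Replication and mitosis genes were lower in 9 and higher in 1 of 17, none by 2-fold, with a median of -0.12 and untreated replicate 3 below both others at 11 of 17. Ccne1, cyclin E1, was lower at -0.35 ± 0.04 and Ccne2, cyclin E2, higher by 0.39 ± 0.07. Cdkn1a and Ccnd2 were separated by a wider margin than the other cell cycle genes named here. Mycn, a Myc family factor of the epiblast, was lower at -0.66 ± 0.10.

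Imprinted genes, of which each parent's copy is regulated separately, were higher in 5 and lower in 6 of 20. The shares over all tested genes were 23.0% higher and 20.7% lower. Peg10, a retrotransposon-derived gene, was at 60.1, 65.7 and 55.2 CPM untreated and 386, 360.2 and 416 CPM after the pulse (log2 fold change 2.68 ± 0.10, adjusted p = 3.99e-13), and its neighbour Sgce at 1.78, 2.08 and 1.47 and 8.17, 7.49 and 8.12 CPM (log2 fold change 2.14 ± 0.13, adjusted p = 3.79e-10). Both genes lie on chromosome 6 and were separated in the same direction. The non-coding RNAs Meg3, Rian and Mirg of a single cluster were lower at -0.51 ± 0.09, -0.51 ± 0.08 and -0.79 ± 0.10. Polycomb and trithorax genes were higher in 4 and lower in 6 of 18, beside 23.0% and 20.7% of all tested genes. None of them changed by 2-fold, with the core subunit gene Suz12 at 0.43 ± 0.05 and Cbx2 at -0.64 ± 0.06. The count of lower ones was 3 without untreated replicate 3, early replicate 1 or early replicate 3.

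Outside or across the lists, the 12 largest rises among genes that reached 5 CPM with separated libraries included several already described: Sp5, Cdx1, Hoxb1, Ntn1, T, Evx1, Wnt8a and Nkx1-2. Also among them were Col6a5, a collagen VI chain, Nt5e, the ectonucleotidase CD73, and Rtl8c, a retrotransposon-derived gene with near-identical copies whose counts are therefore uncertain. Col6a5 was at 0.255, 0.445 and 0.385 CPM untreated and 25.96, 20.99 and 22.7 CPM after the pulse (log2 fold change 5.98 ± 0.42, adjusted p = 2.05e-09). Nt5e was at 0.611, 0.693 and 0.641 and 36.3, 35.5 and 37.1 CPM (log2 fold change 5.79 ± 0.32, adjusted p = 8.14e-11). The 12 started from 0 to 3.97 CPM in the untreated libraries. The 12 largest falls were smaller in size, and by the rule they had at least 5 CPM untreated. Irs4, an insulin receptor substrate, was at 87.6, 81.8 and 71.9 CPM untreated and 5.95, 5.71 and 4.58 CPM after the pulse (log2 fold change -3.89 ± 0.11, adjusted p = 2.63e-14). Slc35d3, a solute carrier family member, was at 51.1, 52.3 and 42.7 and 4.69, 4.73 and 4.98 CPM (log2 fold change -3.34 ± 0.12, adjusted p = 2.44e-13), and Spon1, the matrix protein F-spondin, at 10.2, 11.2 and 6.73 and 0.338, 0.675 and 0.629 CPM (log2 fold change -4.13 ± 0.27, adjusted p = 5.97e-10). Il10, a cytokine gene, was at 10.03, 11.3 and 11.9 and 0.870, 1.29 and 1.26 CPM (log2 fold change -3.29 ± 0.20, adjusted p = 2.68e-10). Elfn1, Tubb4a, Lrtm2, Ephb1, Minar1, Dcn, Aadat and Lypd6b completed the 12, with log2 fold changes from -3.10 to -3.67. None of these genes overlapped between the groups, by the rule that chose them.

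The control libraries of 72 h give the levels at the end of a pulse started 24 h later. They share the untreated libraries of 48 h as their starting point, and where the early libraries of 48 h are compared with them, age and time of the pulse cannot be told apart. Of all tested genes 61.1% were called between these groups, 29.5% higher and 31.7% lower in the early libraries of 48 h than in the controls of 72 h. Wnt feedback and target genes lay below the controls of 72 h in 12 of 14 cases and above in 0. Streak genes lay below in 10 of 13 and above in 2, and caudal genes below in 11 of 13 and above in 0. Axin2 was at 119, 117 and 125 CPM at the end of the early pulse and at 215, 234 and 196 CPM at the end of the control pulse (log2 difference -0.84 ± 0.06, adjusted p = 1.16e-09). T was at 39.2, 37.2 and 45.4 CPM against 1008, 1263 and 872 (log2 difference -4.69 ± 0.18, adjusted p = 3.33e-13). Every early library lay below every control of 72 h for both genes, with a far larger gap for T. Mixl1 was at 2.08, 1.41 and 2.12 against 89.3, 134 and 22.03 CPM (log2 difference -5.44 ± 0.64, adjusted p = 8.69e-07). Cdx2 was at 2.997, 2.52 and 3.43 against 16.5, 19.8 and 37.8 CPM (log2 difference -3.02 ± 0.30, adjusted p = 9.66e-08). Eomes was at 33.8, 35.2 and 37.9 against 125, 123 and 26.3 CPM (log2 difference -1.37 ± 0.35, adjusted p = 0.00266), with control replicate 3 of 72 h below every early library. On log2(FPKM + 0.1) Eomes was not called (adjusted p = 0.0727).

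Naive genes lay above the controls of 72 h in 13 of 14 cases, Gbx2 being the one below. Esrrb was at 197, 178 and 198 CPM against 23.3, 21.7 and 33.2 CPM at the end of the control pulse (log2 difference 2.88 ± 0.11, adjusted p = 5.66e-13). Zfp42, a marker of naive cells, was at 163, 159 and 161 against 18.2, 17.1 and 20.9 CPM, where untreated gastruloids of 48 h had 28.01, 31.6 and 32.3 CPM. Dnmt3l was at 243, 209.8 and 244 against 5.76, 5.21 and 6.04 CPM (log2 difference 5.36 ± 0.14, adjusted p = 7.92e-15). The early libraries were separated from both other groups at these 3 genes. Nodal was at 164, 174 and 183 against 148, 129 and 73.8 CPM (log2 difference 0.56 ± 0.18, adjusted p = 0.0125) and Lefty1 at 208, 213 and 207 against 105, 95.4 and 175 CPM (log2 difference 0.75 ± 0.20, adjusted p = 0.00299). Without control replicate 3 of 72 h the value for Nodal was 0.32 (adjusted p = 0.0524), and Nodal was not called on FPKM (0.0941 to 0.120). Nanog was at 210.4, 218 and 204 against 342, 313 and 242 CPM (log2 difference -0.50 ± 0.11, adjusted p = 6.50e-04), and Pou5f1 did not pass the test (log2 difference -0.04 ± 0.22, adjusted p = 0.887). Formative genes were mixed against 72 h, 7 above and 5 below of 13: Otx2 was at 94.3, 104 and 102 against 29.96, 26.3 and 13 CPM (log2 difference 2.10 ± 0.16, adjusted p = 4.41e-09), and Fgf5 at 36.7, 40.8 and 43.5 against 92.7, 94.8 and 35.9 CPM (log2 difference -0.90 ± 0.25, adjusted p = 0.00411; 0.0748 on log2(FPKM + 0.1)). All 17 tested Platr genes and 10 of 11 DNA methylation genes lay above the controls of 72 h.

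**Figure D4:**
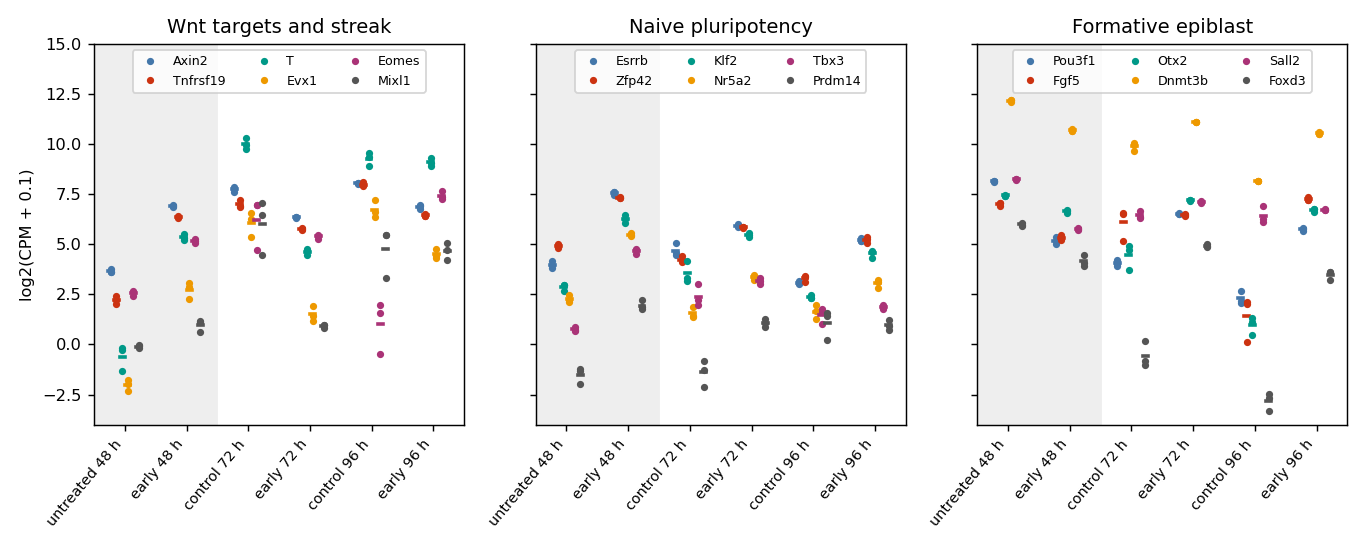
Levels in log2(CPM + 0.1) (vertical axes) of Wnt target and streak genes, naive genes and formative genes in the 6 groups of the study (horizontal axes), one point per library and a line at the mean of the log values; the groups compared here are shaded. Naive genes are highest in the early libraries of 48 h, and T is at 39.2, 37.2 and 45.4 CPM there against 1008, 1263 and 872 CPM in the controls of 72 h.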

How the data were processed

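Stranded libraries of poly(A) RNA were made from pooled gastruloids, per the labels' protocols. The authors deposited whole-number counts per gene for 18 libraries (55385 genes) and FPKM values (55468 genes). The submitters' processing notes name cutadapt 4.0, STAR 2.7.8a and Cufflinks 2.2.1 and the build mm10; for counting and strand, the settings were not given in the sources used here. The labels name a pair of library preparation codes without saying which library had which.

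Counts were fitted with edgeR 4.0.16 in R 4.3.3 (quasi-likelihood F-test, TMM scaling, default filter on low counts, 16041 genes left), with 1 coefficient for each of the 6 groups, which share one estimate of the spread over 12 residual degrees of freedom. Tests were 2-sided, and p-values were adjusted over these 16041 genes (Benjamini-Hochberg). A 2-fold change is a log2 fold change of at least 1 in size. Tested on data simulated for this comparison, with 200 of 16041 genes changed, the fit recovered 100.0% of 2-fold changes and made 12 false calls. The changed genes were drawn only from those with a mean of at least 5 CPM. The simulated spread followed the trend with level and not the spread of each gene. These figures therefore do not give the power for genes of low level or wide spread, nor where far more genes change. Intervals (95%, exact) and floors of 3 counts cover counting error only. FPKM values served as an alternative unit, with limma 3.58.1 on log2(FPKM + 1) or log2(FPKM + 0.1), and for levels per transcript length; they hold no depth. Other alternatives were DESeq2 1.42.0, other filters and scalings, a fit of 6 libraries, the replicate number as a block, and leaving out 1 library at a time. Gene types were matched to GENCODE M21 (54487 IDs).

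Lists hold 806 names (764 genes, 698 tested), and a count of members is described beside the same over all genes, with no test of the list. The comparison, its named members and the lists were chosen with earlier results of these data known. Genes were named by a rule: 12 genes in each direction by size of change, with at least 5 CPM in the higher group and no overlap, up to 4 members per list of lowest adjusted p, called members against the direction of their list, and a panel of known markers, beside fixed cell type markers. Outside this rule, and chosen after their values were seen, are Apcdd1, Bmp4, Ccnd1, Dkk1, Dnmt1, Dppa3, Dsp, Egr1, Esrp1, Esrp2, Fn1, Fos, Foxa2, Fzd7, Gbx2, Gsc, Gsk3b, Hoxa10, Hoxa2, Hoxa4, Hoxb13, Hoxb3, Hoxd13, Id1, Id3, Klf2, Krt19, Krt8, Lgr5, Lif, Meg3, Mesp1, Myc, Nid2, Notum, Pcsk6, Porcn, Prdm1, Rian, Rnf43, Sema3f, Smad2, Snai1, Sox3, Tcf7, Tcf7l1, Tdgf1, Tet1, Uhrf1, Unc5b, Wnt3a, Zfp57 and Znrf3. Values of 4 genes are not reported here.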

Additional observations from a re-analysis of the deposited data

Results flagged for a closer look

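Zfp42, a marker of naive cells, and Dnmt3l, a cofactor of DNA methyltransferases, each changed in opposite directions at the ends of the 2 pulses. Both changes are relative to the same untreated libraries of 48 h. Zfp42 was higher by 2.40 (log2) in the early libraries of 48 h and lower, at -0.71, in the controls of 72 h. The difference of 3.11 was tested directly between the early libraries of 48 h and the controls of 72 h (edgeR, adjusted p = 7.92e-15). Dnmt3l was higher by 1.90 at the end of the early pulse and lower, at -3.46, at the end of the control pulse, a difference of 5.36 (edgeR, adjusted p = 7.92e-15). At both genes all 3 early libraries lay above all 3 untreated libraries and all 3 controls of 72 h. The groups differ in age as well as in the timing of CHIR, and these cannot be told apart.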

How the results depend on the processing

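The counts of called genes kept within 1.5 times the values given, 3694 higher and 3320 lower, under every count-based alternative. On FPKM the count of lower genes stayed within that range (3373, 3433 and 3221 in the 3 fits) and the count of higher genes moved. On log2(FPKM + 1) 2399 genes were higher, 291 of them by at least 2-fold, and 253 were lower by at least 2-fold. With all genes above 0 on that scale these numbers were 2308, 292 and 253, and on log2(FPKM + 0.1) 2434 were higher. A pseudocount of 1 compresses the change of low genes, and the share of calls that were higher was 41.6%, 41.7% and 41.5% in the 3 FPKM fits, against 52.7%; the cause of that difference was not tested. Leaving out 1 library at a time gave 3140 to 3415 higher, 853 to 1005 higher by at least 2-fold, 2802 to 3076 lower and 883 to 934 lower by at least 2-fold. An alternative added after seeing the data, without the 3 control libraries numbered 3, gave 3970 higher and 3836 lower. Pairing by replicate number was not detected: deviations of the libraries numbered 1, 2 and 3 correlated at -0.01, 0.04 and 0.03 between the groups. Such correlations over all tested genes, many of them at low counts, cannot exclude a weak pairing. With the replicate block 3790 genes were higher and 3405 lower, and in the 6 libraries alone 3749 and 3650.

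Of the 297 genes followed across settings, 34 lost their call in at least 1 fit that left out a library and 38 under another setting. Rpl13a, the lower ribosomal gene at -0.28, was at 0.18 in each of the 3 FPKM fits and not called there (adjusted p 0.553 to 0.634). Platr26 moved from 3.13 to 3.77 without untreated replicate 3. Of the 98 counts of list members, 98 stayed within 1.5 times with DESeq2 size factors, 95 with the DESeq2 test and 77 on log2(FPKM + 1). Of genes under 1 CPM 14.9% were called, and the part of depth in that share was not tested.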

Other observations

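Among 12 immediate early and Gadd45 genes, which respond within minutes to hours to growth factors and stress, 2 were higher and 3 lower after the early pulse, beside 23.0% and 20.7% of all tested genes; 4 were higher without early replicate 2. Jun, a subunit of AP-1, was at 5.04, 5.15 and 4.74 CPM untreated and 1.64, 1.47 and 1.66 CPM after the pulse (log2 fold change -1.64 ± 0.15, adjusted p = 9.47e-08, edgeR). Gadd45g was lower as well (log2 fold change -1.04 ± 0.23), whereas Gadd45a was higher (0.52 ± 0.14), as was the stress factor Atf3 (0.98 ± 0.20). Fos and Egr1, the usual readouts of acute ERK activity, were not called, with overlapping libraries. Of 10 cyclin D, CDK inhibitor and Myc genes 2 were higher and 3 lower (1 lower without untreated replicate 3 or early replicate 2), and Myc was not called (0.30 ± 0.14). Tnfsf11, the cytokine RANKL, was at 13.8, 12.02 and 10.6 CPM untreated and 2.61, 2.88 and 2.29 CPM after the pulse (log2 fold change -2.23 ± 0.17). It was lower still in the controls of 72 h, at 0.390 ± 0.124 CPM (mean ± SD, n = 3).

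By gene type, 24.4% of 13651 protein-coding genes were higher and 22.2% lower. Long intergenic non-coding RNAs were higher in 24.6% and lower in 14.0% of 358. Bidirectional promoter transcripts were higher in 2 and lower in 14 of 58. Processed pseudogenes, whose reads can be shared with their parent genes, were higher in 53 and lower in 18 of 524. Chromosomes had median log2 fold changes from -0.03 to 0.08. On chromosome 8, 31.3% of 837 tested genes were higher and 18.4% lower, and on chromosome 15 these shares were 17.97% and 22.3% of 629. Genes of a chromosome are not independent, and these shares are given without a test.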
